A study of Mus musculus with 18 samples.

Results

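The regions described here are the H3K27me3 peaks that lie in gene deserts in vehicle-treated mouse pre-osteoblasts. A peak was counted as a desert peak when it lay more than 100 kb from every gene interval, start to end, of the deposited gene table, which lists protein-coding and non-coding genes on the mouse build mm10. This rule kept 11568 of the 143399 peaks in the merged DMSO list. For comparison, 51294 DMSO peaks overlapped a gene interval by at least 1 bp (genic peaks) and 80537 lay between genes within 100 kb of one. In the merged EPZ6438 list, 896 of 20764 peaks met the same desert rule.

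MC3T3-E1 subclone 4 is a cell line, grown here at passage 9, that came from the calvaria of C57BL/6 mice and matures into osteoblasts in osteogenic medium. The treated cells received 2.5 µM EPZ6438, also known as tazemetostat, for 3 days in osteogenic medium, and the control cells received 0.25% DMSO for 3 days in the same medium. The labels do not say whether the EPZ6438 medium held the same percentage of DMSO. The series holds 18 samples, which are 12 ChIP-seq samples (H3K27me3, H3K4me3 and input, 2 per treatment each) and 6 RNA-seq samples (3 per treatment). All samples come from 1 subclone, and nothing in the labels says that they are separate cultures, so the spread between them may be technical.

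H3K27me3 is a repressive histone mark laid down by Polycomb repressive complex 2, whose catalytic subunit is EZH2 or its relative EZH1. EPZ6438 blocks the methyltransferase site of EZH2 and leaves the protein in place. Gene deserts are long stretches without annotated genes. Some hold distant enhancers of developmental regulators at their edges, and others are poor in regulatory sequence and are found in late-replicating, inactive chromatin.

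Promoter windows are shown here because the sequence of the peaks themselves was not read, no genome of the build being used here, and they touch few of the desert peaks. Of the 790 RefSeq promoter windows (300 bases, from 250 before to 50 after a transcript start, build GRCm38.p6) that lay more than 100 kb from the table's genes, 1 (0.127%) was overlapped by an EPZ6438 H3K27me3 peak and 17 (2.15%) by a DMSO peak. Inside gene intervals, 242 of 25311 windows (0.956%) were overlapped by an EPZ6438 peak and 734 (2.90%) by a DMSO peak. The desert window under the EPZ6438 peak belongs to Myo16, an unconventional myosin with ankyrin repeats, whose RefSeq transcript begins 118 kb outside its interval in the gene table. It is shown first, followed by the 5 desert windows that lay wholly inside a DMSO peak. Capitals mark each CG dinucleotide, the letters C and G in a row, which read the same on both strands. CG-dense DNA is where Polycomb marks promoters in many cell types.
Myo16: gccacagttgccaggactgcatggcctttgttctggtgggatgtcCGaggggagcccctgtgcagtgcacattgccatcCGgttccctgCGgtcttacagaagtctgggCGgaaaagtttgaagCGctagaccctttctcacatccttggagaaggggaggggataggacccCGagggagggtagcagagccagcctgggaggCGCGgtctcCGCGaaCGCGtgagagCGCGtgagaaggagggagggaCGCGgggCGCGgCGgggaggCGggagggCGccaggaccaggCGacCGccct
Gm40518: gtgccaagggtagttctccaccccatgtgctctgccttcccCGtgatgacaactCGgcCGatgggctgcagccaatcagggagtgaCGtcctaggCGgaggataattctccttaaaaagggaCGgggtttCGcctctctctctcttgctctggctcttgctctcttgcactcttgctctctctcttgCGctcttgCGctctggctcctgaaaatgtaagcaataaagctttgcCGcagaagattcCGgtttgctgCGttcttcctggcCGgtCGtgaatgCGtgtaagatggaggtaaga
Gm51680: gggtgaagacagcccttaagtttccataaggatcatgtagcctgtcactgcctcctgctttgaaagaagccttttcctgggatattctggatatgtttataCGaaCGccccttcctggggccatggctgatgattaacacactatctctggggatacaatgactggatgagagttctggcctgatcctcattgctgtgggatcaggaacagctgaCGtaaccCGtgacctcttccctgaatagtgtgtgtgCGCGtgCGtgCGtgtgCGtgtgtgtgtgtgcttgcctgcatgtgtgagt
4930503F20Rik: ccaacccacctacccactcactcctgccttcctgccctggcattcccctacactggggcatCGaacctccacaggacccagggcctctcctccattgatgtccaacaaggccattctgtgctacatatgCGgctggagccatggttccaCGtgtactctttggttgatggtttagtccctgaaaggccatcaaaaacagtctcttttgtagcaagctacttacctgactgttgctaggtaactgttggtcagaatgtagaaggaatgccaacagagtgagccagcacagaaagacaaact
Gm34105: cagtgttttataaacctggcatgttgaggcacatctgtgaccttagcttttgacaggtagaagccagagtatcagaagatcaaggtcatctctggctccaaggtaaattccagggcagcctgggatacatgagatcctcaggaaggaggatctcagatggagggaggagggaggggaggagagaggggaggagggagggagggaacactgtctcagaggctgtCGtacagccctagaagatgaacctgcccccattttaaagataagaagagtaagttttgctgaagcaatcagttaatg
Gm34965: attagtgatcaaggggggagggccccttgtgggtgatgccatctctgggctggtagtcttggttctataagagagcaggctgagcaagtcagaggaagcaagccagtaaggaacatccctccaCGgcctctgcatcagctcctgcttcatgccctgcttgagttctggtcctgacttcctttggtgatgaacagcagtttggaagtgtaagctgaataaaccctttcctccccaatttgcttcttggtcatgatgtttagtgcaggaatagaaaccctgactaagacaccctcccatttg

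The Myo16 window (chr8:10153661-10153960, plus strand) holds 23 CG dinucleotides, and 150 of its bases lay under an EPZ6438 peak and 298 under a DMSO peak of 742 bp. None of the other 5 windows was touched by an EPZ6438 peak. Gm40518 (chr9:48158699-48158998, minus strand) holds 15 CG dinucleotides inside a DMSO peak of 551 bp. Gm51680 (chr9:61033616-61033915, minus strand) and Gm34105 (chr9:61206429-61206728, plus strand) hold 9 and 1, and both lie in the desert between Uaca and Gm10655 described below. Gm34965 (chr15:86604679-86604978, plus strand) holds 1 in a DMSO peak of 2232 bp in the desert beside Tbc1d22a, and 4930503F20Rik (chr14:33811234-33811533, minus strand) holds 3. CG-rich windows were rare among desert windows. By the distance rule, the start of a gene interval in the table can never be a desert window. The rule itself thus separates the kinds of transcript compared, and the contrast with genic windows is a description. The median was 3 CG dinucleotides over all desert windows and 11 over genic windows, and 15 or more were found in 2.41% of desert windows, 42.5% of genic windows and 34.6% of all 32851 windows. The 17 desert windows under a DMSO H3K27me3 peak had a median of 2 and an upper quartile of 7, and the 773 desert windows under none a median of 3 and an upper quartile of 4. Of these, 2 of the 17 (11.8%) and 17 of the 773 (2.20%) held 15 or more, and the difference was not tested. Among genic windows the shares were 41.1% of 734 under a DMSO peak and 42.5% of 24577 under none. Among windows between genes within 100 kb of one they were 10.3% of 341 and 8.99% of 6409. The desert contrast rests on 2 windows and was not seen in genic windows.

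Desert peaks were a smaller share of the EPZ6438 list than of the DMSO list, and they were sparser and slightly narrower than genic peaks. They made up 4.32% of the EPZ6438 list (95% Wilson interval 4.05 to 4.60) and 8.07% of the DMSO list (7.93 to 8.21). Deserts cover 342.5 Mb, or 12.9% of the span measured, where the length counts only sequence more than 100 kb from a gene. In that sequence the EPZ6438 list held 2.62 peaks per Mb (exact Poisson interval 2.45 to 2.79) and the DMSO list 33.8 (33.1 to 34.4). Gene intervals held 7.38 EPZ6438 peaks per Mb (7.22 to 7.54) and 46.9 DMSO peaks per Mb (46.5 to 47.3). The EPZ6438 density was therefore 7.75% of the DMSO density in deserts and 15.7% in genes, which is 12.9-fold lower in deserts and 6.36-fold lower in genes. Bases under peaks followed the same order, at 0.119% of desert sequence in EPZ6438 and 1.79% in DMSO, against 0.415% and 2.85% of genic sequence. Only 1 merged list per mark and treatment was used, so none of these differences has a replicate check and no test was made. Intervals cover counting error alone, and the read depth behind each list is unknown.

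The desert peaks of the DMSO list had a median width of 351 bp (quartiles 192 and 691, interval of the median 342 to 361), and genic DMSO peaks had a median of 382 bp (209 and 778). The smallest width in that list, 168 bp, accounted for 17.1% of desert peaks and 12.2% of genic peaks. At the other end, 11.4% of desert peaks and 16.2% of genic peaks were at least 1000 bp wide. The EPZ6438 peaks in deserts had a median width of 313.5 bp, and the genic ones 423 bp. The gap in width was thus wider in the EPZ6438 list, whose smallest peak is 185 bp. Desert peaks were also further apart, with a median of 5.09 kb to the next DMSO peak against 2.28 kb for genic peaks.

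Few desert peaks of the DMSO list were met by an EPZ6438 peak. Retention, meaning overlap by at least 1 bp with a peak of the EPZ6438 list, was 517 of 11568 desert peaks, or 4.47% (4.11 to 4.86), against a background of 10.8% over all 143399 DMSO peaks. Among genic peaks it was 6119 of 51294, or 11.9% (11.7 to 12.2), and among peaks within 100 kb of a gene 11.0%. The retained desert peaks tended to be wider, with a median DMSO width of 569 bp, against 343 bp for those not retained. Their EPZ6438 partners had a median width of 375 bp, and 68.5% of the retained peaks had a narrower partner. A median of 58.5% of the retained DMSO peak was covered. Retained desert peaks also sat closer to other DMSO peaks, at a median of 2.31 kb to the next one against 5.36 kb for those not retained. Genic peaks shared these traits. The retained ones had a median width of 777 bp, against 348 bp for those not retained. Of the retained genic peaks 70.7% had a narrower partner, and a median of 52.4% was covered. Their median distance to the next DMSO peak was 1.558 kb, against 2.445 kb for those not retained.

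Retention was highest in the widest peaks, and desert peaks were retained less often than genic peaks of the same width in 7 of 7 width classes. At up to 200 bp it was 59 of 3129 desert peaks (1.89%) and 450 of 11631 genic peaks (3.87%). Between 601 and 1000 bp it was 5.08% of 2206 desert peaks and 13.3% of 9440 genic peaks. Above 2000 bp it was 47 of 232 desert peaks (20.3%, interval 15.6 to 25.9) and 872 of 1843 genic peaks (47.3%, 45.0 to 49.6). The genic share was between 1.95 and 2.80 times the desert share in each class. With the width classes weighted as in genic peaks, desert retention was 4.95%.

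**Figure D1:**
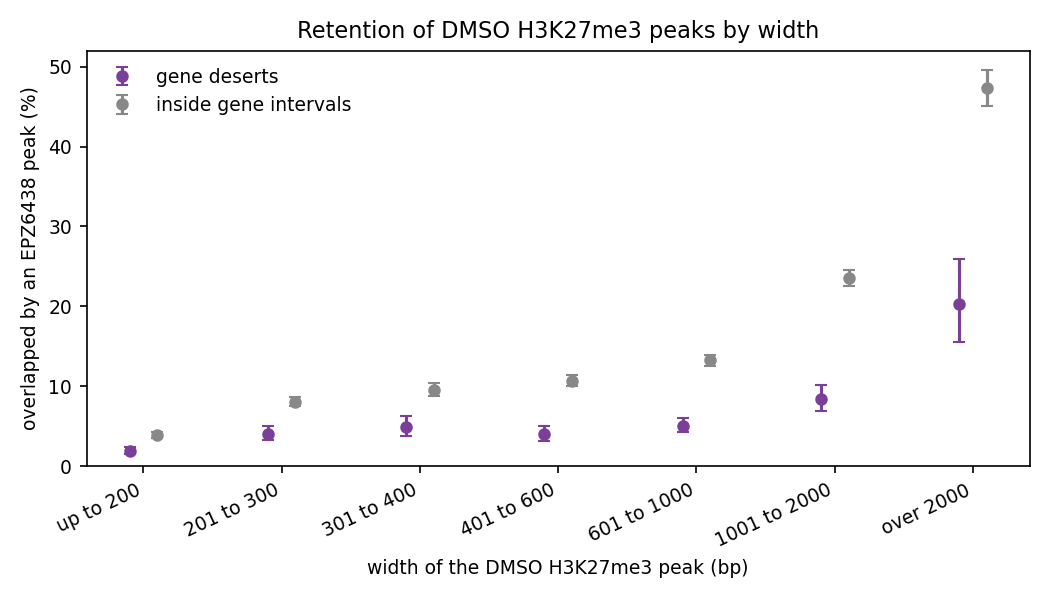
Share of DMSO H3K27me3 peaks overlapped by an EPZ6438 peak (percent) against the width of the DMSO peak (bp), for gene deserts (purple) and peaks inside gene intervals (grey). Points are shares and bars are 95% Wilson intervals, which cover counting error only. Desert points lie below genic points in all 7 classes, at 20.3% against 47.3% above 2000 bp.

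Outside genes, both density and retention fell with distance, and the fall went on beyond the 100 kb limit. Retention was 11.9% inside genes, 11.6% at up to 10 kb, 11.5% at 10 to 50 kb and 8.19% at 50 to 100 kb. Among desert peaks it was 5.80% (431 of 7427) at 100 to 200 kb, 2.21% (83 of 3763) at 200 to 500 kb and 0.794% (3 of 378, interval 0.270 to 2.31) beyond 500 kb. DMSO density in the same 3 desert bins was 38.0, 29.5 and 19.2 peaks per Mb, and EPZ6438 density was 3.55, 1.50 and 0.659. The DMSO density thus declined by a smaller factor than the EPZ6438 density over these bins. Just at the limit the classes did not differ beyond counting error: 6.71% of 149 peaks within 1 kb above it were retained (3.69 to 11.9) and 4.48% of 134 peaks within 1 kb below it (2.07 to 9.42). The most distant member lay 927 kb from the nearest gene, on chromosome 14 (chr14:81269969-81270160), and was 192 bp wide and not retained.

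**Figure D2:**
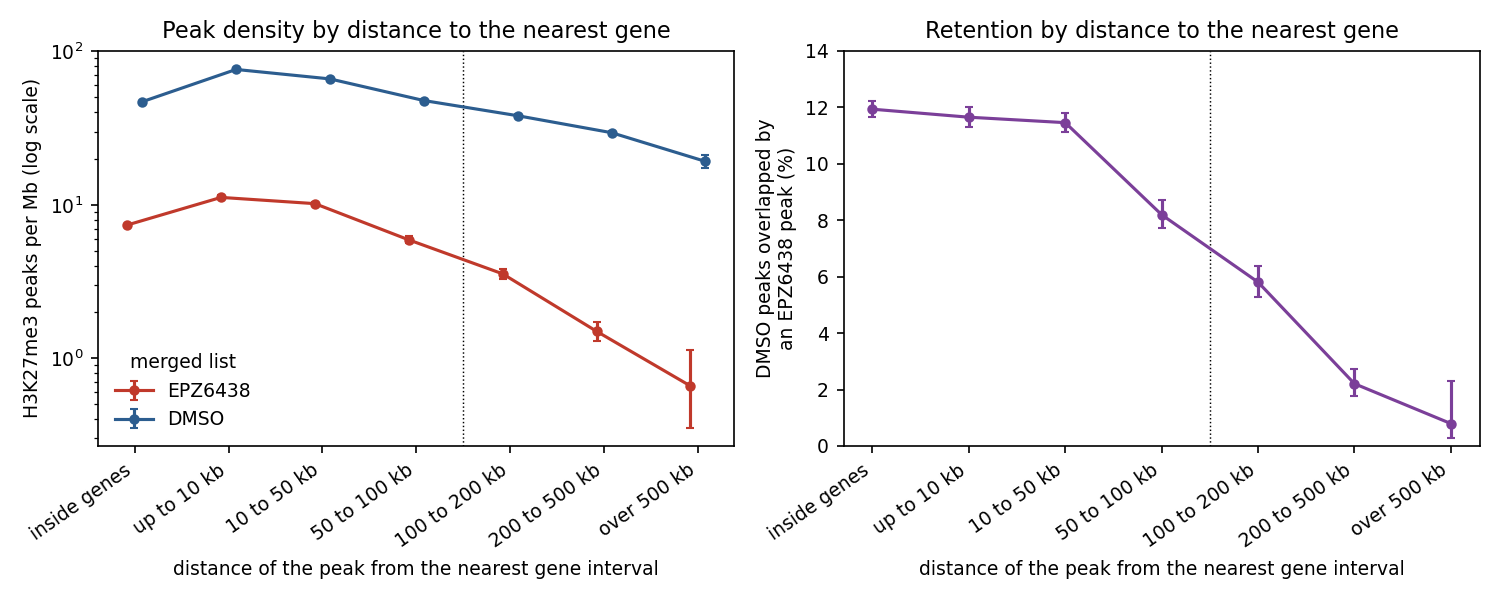
Left, H3K27me3 peaks per Mb (log scale) in the EPZ6438 list (red) and the DMSO list (blue) by distance from the nearest gene interval, with exact Poisson intervals. Right, share of DMSO peaks overlapped by an EPZ6438 peak (percent), with Wilson intervals; the dotted line marks 100 kb. Retention is 11.9% inside genes and 0.794% beyond 500 kb, and the EPZ6438 density falls more steeply than the DMSO density.

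The lower retention in deserts was seen on 19 of 19 autosomes, and the intervals of desert and genic shares did not overlap on 17 of them. Desert retention ranged from 2.06% on chromosome 1 to 9.76% on chromosome 9 (median 3.98%), and genic retention from 6.10% to 16.7% (median 11.2%). The overlapping intervals were on chromosomes 9 and 13. On chromosome 9, 45 of 461 desert peaks were retained (9.76%) and 10.9% of genic peaks. Chromosome 6 held the most desert peaks, 1279, at 66.4 per Mb of desert, and chromosome 19 was densest at 87.4 per Mb. Chromosome X held 32 desert peaks, 2.71 per Mb, and 0 were retained (Wilson interval up to 10.7%).

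**Figure D3:**
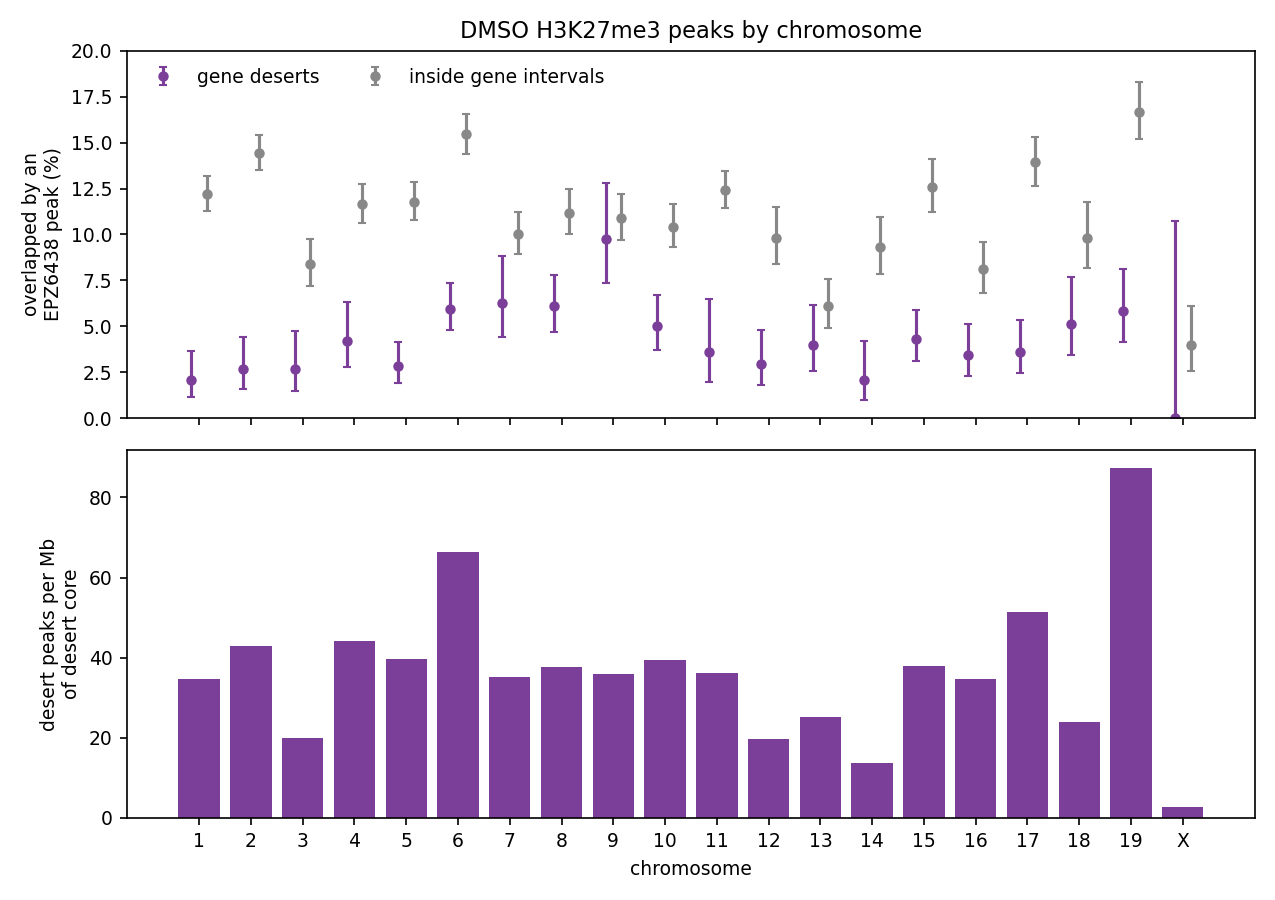
Top, share of DMSO H3K27me3 peaks overlapped by an EPZ6438 peak (percent) on each chromosome, for gene deserts (purple, left of each pair) and gene intervals (grey), with 95% Wilson intervals. Bottom, desert peaks per Mb of desert sequence in the DMSO list. Desert retention lies below genic retention on all 19 autosomes, with the closest pair on chromosome 9 (9.76% and 10.9%), and density is highest on chromosome 19 (87.4 per Mb).

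The EPZ6438 list also held desert peaks at positions with no DMSO peak. Of its 896 desert peaks, 519 (57.9%, interval 54.7 to 61.1) were overlapped by a DMSO peak, against a background of 76.1% over the whole EPZ6438 list and 75.9% of its genic peaks. The remaining 377 (42.1%) had a median width of 246 bp, against 375 bp for those with a DMSO partner. They lay a median of 3.68 kb from the nearest DMSO peak, and 73.5% lay within 10 kb of one. The 1946 genic EPZ6438 peaks with no DMSO partner lay a median of 1.73 kb away, and 92.1% were within 10 kb.

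H3K4me3, the mark of active promoters, also thinned out between genes in the EPZ6438 list, in deserts and within 100 kb of a gene. The EPZ6438 H3K4me3 list had 145 desert peaks among 16216 (0.894%), and the DMSO H3K4me3 list 2417 among 40113 (6.03%). Per Mb of desert this was 0.420 in EPZ6438 and 7.05 in DMSO, or 5.97% of the DMSO density. Between genes within 100 kb of one it was 2.17 in EPZ6438 and 15.5 in DMSO. The lower H3K4me3 density was therefore not limited to deserts. In gene intervals it was 12.2 and 17.1, or 71.6%. Desert H3K4me3 peaks were narrow in both lists, with median widths of 240 bp in EPZ6438 and 196 bp in DMSO. The whole lists differed as well, with median widths of 401 bp in EPZ6438 and 212 bp in DMSO. The smallest width of each list accounted for 9.47% of EPZ6438 and 24.2% of DMSO H3K4me3 peaks. Genic promoter windows were overlapped by an H3K4me3 peak in 22.1% of cases in EPZ6438 and 11.7% in DMSO. The cause of these differences between the H3K4me3 lists was not tested. The EPZ6438 lists of both marks thus held fewer desert peaks, and the relation of this to EZH2 activity was not tested. Among the 11568 desert H3K27me3 peaks of DMSO, 28 (0.242%) overlapped an EPZ6438 H3K4me3 peak, against a background of 0.284% over all DMSO H3K27me3 peaks, and 1024 (8.85%) a DMSO H3K4me3 peak, against 11.9%. Genic H3K27me3 peaks overlapped a DMSO H3K4me3 peak in 11.1% of cases. Of the EPZ6438 desert H3K27me3 peaks, 7 (0.781%) overlapped an EPZ6438 H3K4me3 peak, close to the 0.722% of all EPZ6438 H3K27me3 peaks.

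Desert peaks were spread over many deserts. Between neighbouring genes there were 1655 deserts, of which 408 held an EPZ6438 peak, 1242 held a DMSO peak and 250 held a retained one. Only 4 members lay at chromosome ends outside such gaps. The median desert with a DMSO peak had 5 of them, and 195 deserts held 50% of all members. Retained peaks were scattered more thinly: 130 deserts had 1, and the 16 deserts with 5 or more held 118 of the 517.

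The densest deserts were sought among the 171 whose sequence beyond 100 kb of a gene (the core) reached 500 kb, where DMSO density had a median of 23.2 peaks per Mb and quartiles of 11.3 and 39.9. The 10 densest held 51 EPZ6438 peaks and 691 DMSO peaks in 7.60 Mb of core, which is 6.71 and 91.0 per Mb. They thus held 5.98% of members in 2.22% of desert core. Retention there was 28 of 691, or 4.05% (2.82 to 5.79), close to the 4.47% of all members. The DMSO peak number was the measure used to rank these deserts, so their density is a description.

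The densest desert lies between Adra2a, the alpha-2A adrenergic receptor, and Gpam, a mitochondrial acyltransferase of triglyceride synthesis (chr19:54048983-55069733). The core of this desert, 0.821 Mb, held 10 EPZ6438 peaks and 112 DMSO peaks, 136 per Mb, of which 8 (7.14%) were retained. The second lies between Maf, a leucine-zipper transcription factor, and Dynlrb2, a dynein light chain (chr8:115707795-116505014), with 4 EPZ6438 peaks and 69 DMSO peaks, 2 of them retained. Of those 4 EPZ6438 peaks, 3 stood together, between 526 and 538 kb from Maf. The third lies between Rgs17, a regulator of G-protein signalling, and Gm10945, with Oprm1, the mu opioid receptor, as the nearest named gene (chr10:5922401-6740628). It held 4 EPZ6438 peaks, and 4 of its 63 DMSO peaks were retained.

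The fourth runs from Mir6393, beside Fam19a5, to Zdhhc25 (chr15:87795944-88600301) and held 2 EPZ6438 peaks and 52 DMSO peaks, 2 retained. The fifth, between Nox3, an NADPH oxidase of the inner ear, and Gm23186 (chr17:3696262-4678019; nearest named gene Arid1b, a chromatin-remodelling subunit), held 8 EPZ6438 peaks and 66 DMSO peaks. No DMSO peak there was retained, so all 8 EPZ6438 peaks were at other positions. The sixth was the one with the most peaks: between Edem1, a factor of endoplasmic reticulum protein degradation, and Gm20387, next to the glutamate receptor gene Grm7 (chr6:108859357-110639752), there were 7 EPZ6438 peaks and 133 DMSO peaks, with 2 retained (1.50%). In this desert 36 DMSO H3K4me3 peaks were listed and 0 EPZ6438 ones. The others among the 10 were Lrrtm4 to Gm26264 on chromosome 6 (4 EPZ6438 and 50 DMSO peaks), Stim2 to Gm24235 on chromosome 5 (3 and 39), Gm25598 to BC002059 beside Rgmb on chromosome 17 (4 and 68) and 4930594M17Rik to Gm26012 on chromosome 18 (5 and 39). Lrrtm4 is a synaptic adhesion protein, Stim2 a calcium sensor of the endoplasmic reticulum and Rgmb a co-receptor for bone morphogenetic proteins. Next below these 10 came Gm27894 to Ndufa4 on chromosome 6, with 71.3 DMSO peaks per Mb and 0 of 60 retained.

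**Figure D4:**
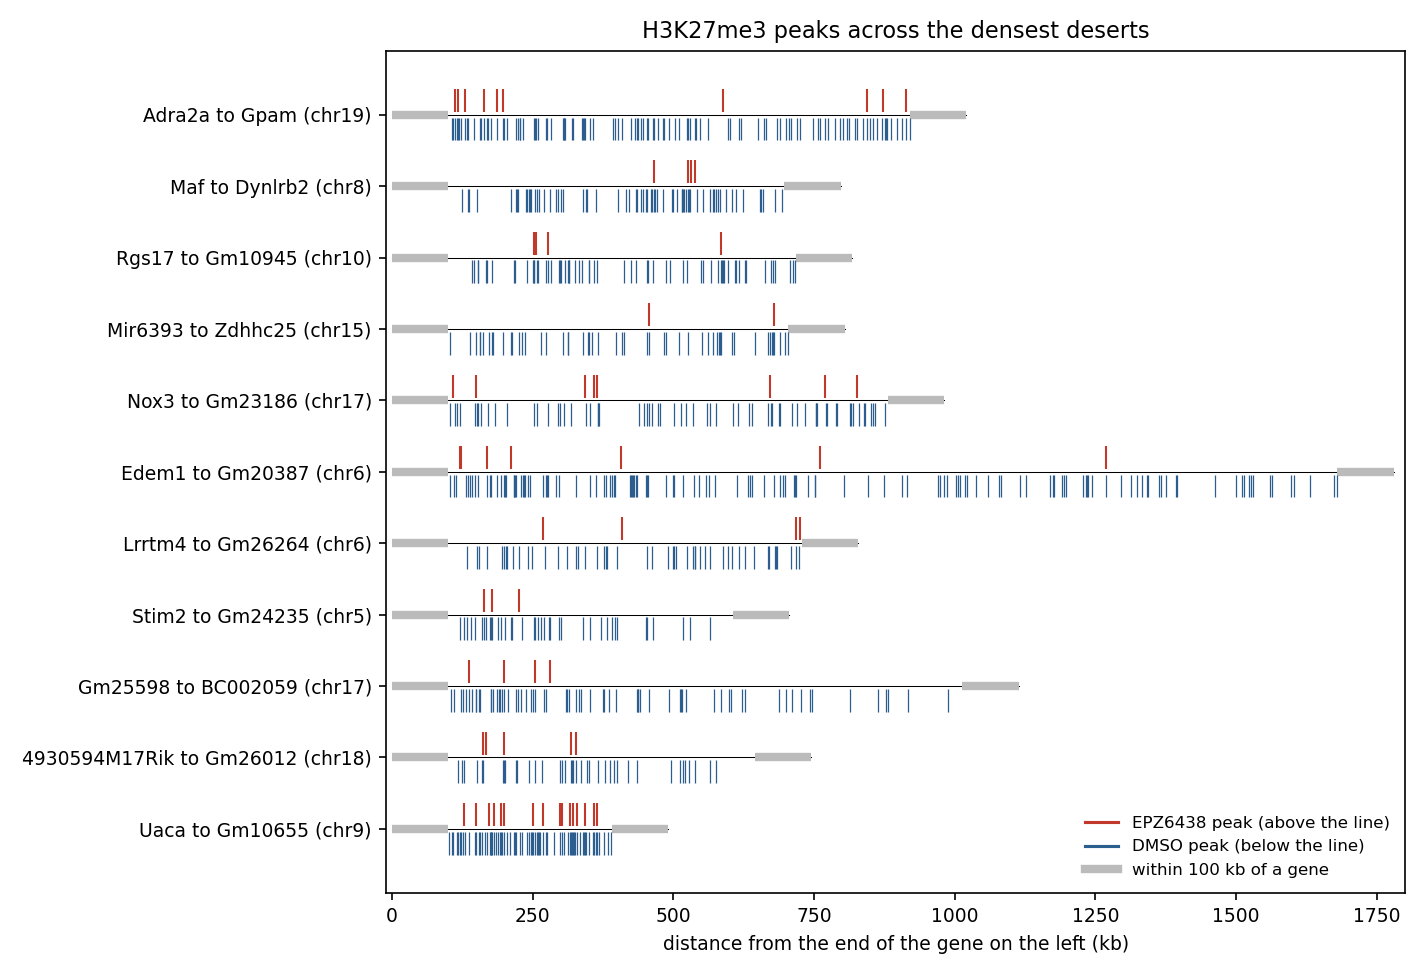
H3K27me3 peaks across the 10 deserts with the highest DMSO density and, at the bottom, the Uaca to Gm10655 desert, plotted by distance (kb) from the end of the gene on the left. Red ticks above each line are EPZ6438 peaks, blue ticks below are DMSO peaks, and grey ends lie within 100 kb of a gene. The Edem1 desert has 7 red and 133 blue ticks, and the short Uaca desert 16 and 74.

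A desert with a core too short for the density ranking ranked high by number of peaks and was denser than those above. Between Uaca and Gm10655, a lincRNA gene next to Tle3 (chr9:60880371-61370796), 16 EPZ6438 peaks and 74 DMSO peaks were packed into a core of 0.290 Mb, or 55.1 and 255 per Mb. Here 15 DMSO peaks were retained (20.3%, interval 12.7 to 30.8), the most in any desert. The desert on the other side of Tle3, a Groucho co-repressor gene, reaches to Rplp1 and was chosen after its values were seen. It held 13 EPZ6438 peaks and 57 DMSO peaks, 11 of them retained (19.3%, 11.1 to 31.3). Another pair of deserts named for their retained peaks after their values were seen were Tbc1d22a to Gm23416 on chromosome 15 (9 of 54 retained) and Pdzrn3 to Gm9871 on chromosome 6 (9 of 29 retained, 31.0%). Pdzrn3 encodes an E3 ubiquitin ligase. The retained peaks of the Tle3 flanks make up 26 of the 45 on chromosome 9.

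The widest members were retained in part or not at all. The widest of all, 7208 bp (chr10:6250591-6257798), lies 328 kb from a gene in the Rgs17 desert and was not retained. The next, 6575 bp in the Pdzrn3 desert (chr6:101586777-101593351), was met by 2 EPZ6438 peaks that covered 20.6% of it. A peak of 6498 bp between Meis1 and Spred2 (chr11:19500312-19506809) was covered to 8.90%, and one of 5823 bp beside Slc24a3 (chr2:145032361-145038183) to 15.03%. Meis1 is a homeobox gene of limb and blood development. In these 3 retained peaks the EPZ6438 peaks covered a small part of the DMSO peak, while the median covered over all retained members was 58.5%. The 3 were picked for their DMSO width, and the widest EPZ6438 desert peak was 3561 bp. That choice favours a low share covered, so nothing is read from the contrast. All 4 of these wide peaks also overlapped a DMSO H3K4me3 peak, against 8.85% of all members, a share that was not taken by width. Wide members that were not retained included 5414 bp between Tcf21 and Eya4 and 5408 bp beside Cxcl12. Of these, the Cxcl12 peak overlapped a DMSO H3K4me3 peak and the Tcf21 peak did not.

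The genes at the edges of deserts were read from RNA-seq of the same treatments. The libraries held 20023137 to 24140050 reads in genes in EPZ6438 and 18807156 to 25365513 in DMSO. Levels are RPKM, reads scaled by gene length and by the library's reads. Marker genes of the osteoblast lineage summed to 5603 to 7458 RPKM in EPZ6438 and 3460 to 6043 in DMSO, with 10 of 10 markers detected. Of the 4 endothelial markers Kdr and Cdh5 were at 0, of the 4 neuronal ones Rbfox3 and Nefl, and each of those 2 lists summed to under 0.1 RPKM in every library. Fat cell markers summed to 0.0771 to 0.101 RPKM in EPZ6438 and 0.0501 to 0.239 in DMSO, and 4 blood markers to 1.02 to 1.49 and 0.846 to 1.14, with Cd3e at 0. Mesenchymal markers summed to 124 to 132 RPKM in EPZ6438 and 151 to 157 in DMSO. In bulk RNA, fewer cells of a type and less RNA per cell cannot be told apart. Ezh2 itself was at 15.4, 14.1 and 15.1 RPKM in EPZ6438 and 16.2, 14.3 and 12.7 RPKM in DMSO, with overlapping groups.

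In all, 2178 genes bounded a desert with a DMSO H3K27me3 peak, 839 of them protein-coding, and 524 had at least 10 reads in at least 3 libraries and were tested. By limma on log2(RPKM + 0.1), with Benjamini-Hochberg adjustment over all genes tested, 72 of the 524 (13.7%) passed an adjusted p of 0.05, 37 higher and 35 lower in EPZ6438. The background was 7.04% of 14213 genes, 3.80% higher and 3.24% lower. Among flanking protein-coding genes 68 of 415 passed (16.4%), against 7.78% of all protein-coding genes. The median log2 fold change was -0.04 over the flanking genes and -0.03 over all genes. The count was 39 of 515 without EPZ6438 replicate 1, 33 of 512 without EPZ6438 replicate 2, 31 of 516 without EPZ6438 replicate 3 and 33 of 518 without DMSO replicate 2. Those are 7.57%, 6.45%, 6.01% and 6.37% of the flanking genes tested, and the background in the same fits was 2.72%, 2.66%, 2.20% and 2.39%. The calls went in both directions in each fit.

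The share called was also taken by the number and retention of the peaks in the desert or deserts beside each gene. Peaks were summed where a gene bounded more than 1 desert. Of genes with a sum of 10 or more DMSO peaks 24 of 200 passed (12.0%), and of those with 1 to 9 peaks 48 of 324 (14.8%). Beside a desert with a retained peak 26 of 166 passed (15.7%), and beside deserts with none 46 of 358 (12.8%). These differences were not tested. At the edges of deserts, 42.9% of protein-coding genes were at 1 RPKM or more in EPZ6438 and 42.8% in DMSO, against 48.4% and 48.1% of all protein-coding genes.

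Genes higher and lower in EPZ6438 were found beside deserts with and without retained peaks. Among the 10 with the lowest adjusted p that were higher in EPZ6438, Tnfrsf11b, which encodes osteoprotegerin, the decoy receptor that restrains osteoclast formation, was at 155, 137 and 150 RPKM in EPZ6438 and 45.2, 38.8 and 35.3 in DMSO (log2 fold change 1.89 ± 0.11 SE, limma adjusted p = 0.000313). Cyp26b1, which degrades retinoic acid, was at 28.2, 29.4 and 29.6 RPKM in EPZ6438 and 8.34, 10.1 and 9.61 in DMSO (1.63 ± 0.09, adjusted p = 0.000313 by limma). The desert beside Cyp26b1 held 25 DMSO peaks, 4 retained, and the desert beside Tnfrsf11b held 2 with none retained. Gpr133, an adhesion G-protein-coupled receptor, was at 6.22, 6.18 and 6.38 RPKM in EPZ6438 and 1.31, 1.01 and 1.18 in DMSO (2.34 ± 0.13, adjusted p = 0.000313 by limma). Sema6a, a transmembrane semaphorin, was at 7.02, 6.61 and 6.57 RPKM in EPZ6438 and 1.80, 1.86 and 1.76 in DMSO (1.84 ± 0.11, adjusted p = 0.000313 by limma). In all 4 genes every EPZ6438 library was above every DMSO library. The treatments did not overlap in 26.7% of all genes tested, and these 4 were picked by adjusted p.

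Ostn, which encodes the bone-secreted peptide osteocrin, had 19, 28 and 11 reads in the EPZ6438 libraries and 0 in each DMSO library. At a floor of 3 reads per DMSO library, its EPZ6438 mean was at least 6.32-fold higher (limma adjusted p = 0.00178). Ostn met the filter of 10 reads in at least 3 libraries through the EPZ6438 libraries alone. Its adjusted p is therefore a description and no support for the difference. Bambi, a pseudoreceptor that dampens TGF-beta signals, was at 3.99, 4.20 and 3.80 RPKM in EPZ6438 and 1.58, 1.14 and 1.27 in DMSO (1.53 ± 0.15, adjusted p = 0.00198 by limma). Bmper, a secreted modulator of bone morphogenetic proteins, was at 4.51, 4.30 and 4.62 RPKM in EPZ6438 and 1.23, 1.71 and 0.977 in DMSO (1.74 ± 0.20, adjusted p = 0.00351 by limma). None of these 3 genes had a retained peak beside it. Cxcl12, a chemokine made by bone marrow stromal cells, was at 8.75, 8.74 and 9.02 RPKM in EPZ6438 and 4.76, 3.94 and 4.20 in DMSO (1.03 ± 0.11, adjusted p = 0.00247 by limma). It stands beside 27 DMSO peaks, of which 6 were retained, and 10 EPZ6438 peaks. The other 2 were Robo2, a Slit receptor (1.82 ± 0.17), and Pxdc1 (0.80 ± 0.08). The treatments did not overlap in either, nor in 26.7% of all genes tested. RefSeq places 9 desert peaks inside a longer Robo2 gene.

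The 10 genes lower in EPZ6438 with the lowest adjusted p began with Gas1. Gas1, a Hedgehog co-receptor, was at 10.5, 9.83 and 9.54 RPKM in EPZ6438 and 30.3, 28.5 and 25.2 in DMSO (log2 fold change -1.48 ± 0.10 SE, limma adjusted p = 0.000515). Cdh26, a cadherin, was at 3.23, 2.86 and 2.85 RPKM in EPZ6438 and 10.1, 13.5 and 12.1 in DMSO (-1.95 ± 0.13, adjusted p = 0.000637 by limma), and its desert held 54 DMSO peaks with 2 retained. Rspo2, which potentiates Wnt signals, was at 3.74, 3.68 and 3.18 RPKM in EPZ6438 and 8.86, 8.70 and 7.75 in DMSO (-1.23 ± 0.11, adjusted p = 0.00168 by limma). All 3 were lower in EPZ6438 with no overlap of libraries, which held in either direction for 26.7% of all genes tested. Npr3, the clearance receptor for natriuretic peptides that also binds osteocrin, was at 4.50, 3.55 and 3.64 RPKM in EPZ6438 and 8.38, 8.91 and 7.92 in DMSO (-1.10 ± 0.13, adjusted p = 0.00355 by limma). Tgfbr2, a TGF-beta receptor, was at 55.6, 51.9 and 52.3 RPKM in EPZ6438 and 78.5, 84.9 and 80.6 in DMSO (-0.61 ± 0.07, adjusted p = 0.00366 by limma). Pdk4, a kinase that restrains pyruvate oxidation, was at 6.75, 4.46 and 4.91 RPKM in EPZ6438 and 16.7, 14.5 and 12.9 in DMSO (-1.45 ± 0.17, adjusted p = 0.00413 by limma). Of Npr3, Tgfbr2 and Pdk4, Pdk4 alone stood beside retained peaks, 3 of 6. Diras2, a Ras-family GTPase (-0.97 ± 0.11), Adamts1, a secreted metalloproteinase (-0.84 ± 0.10), Aim1 (-0.86 ± 0.11) and Fam169b, listed as a lincRNA (-1.50 ± 0.21), completed the 10. Of these 20 genes, 19 passed in each of the 13 other fits tried. Ostn had too few reads to be tested in the 3 fits without an EPZ6438 library and passed in the other 10.

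**Figure D5:**
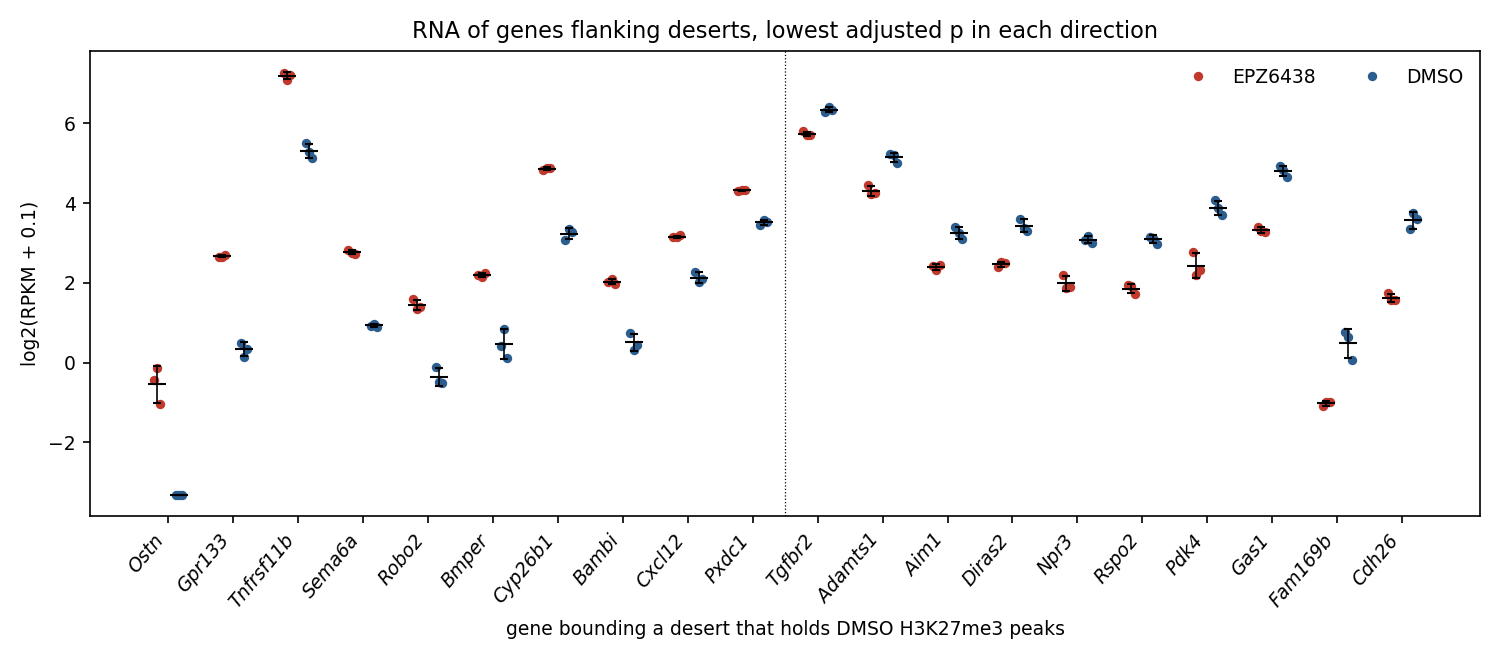
RNA level, log2(RPKM + 0.1), of the 20 desert-flanking genes with the lowest adjusted p, 10 higher (left of the dotted line) and 10 lower in EPZ6438. Points are libraries (EPZ6438 red, left of DMSO blue), and black bars are mean ± SD of 3 libraries. The treatments do not overlap in any of these 20, which were picked by adjusted p, nor in 26.7% of all genes tested. Ostn has no read in DMSO.

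The genes at the edges of the densest deserts were mostly too low to be tested. Of the 22 genes bounding the 11 deserts ranked by density or number, 7 were tested and 0 passed (limma; 4 had an unadjusted p under 0.05, and limma with voom on recovered reads also called 0, with 4 under 0.05). With 7 genes tested, a count of 0 cannot be told from the background of 7.04% by adjusted p. Over all genes, 2927 of 14213 tested had an unadjusted p under 0.05 by limma. With 7 genes tested, nothing is read from the count of 4 beside that share. The 4 genes beside these deserts were Gpam, Maf, Rgs17 and Uaca. Maf was at 4.71, 4.34 and 4.58 RPKM in EPZ6438 and 6.23, 6.06 and 5.23 in DMSO (log2 fold change -0.35 ± 0.11 SE, limma adjusted p = 0.122). Gpam was at 16.9, 15.6 and 16.4 RPKM in EPZ6438 and 18.3, 20.4 and 19.7 in DMSO (-0.25 ± 0.08, adjusted p = 0.127 by limma). Uaca was at 9.52, 10.9 and 10.1 RPKM in EPZ6438 and 6.77, 8.56 and 7.98 in DMSO (0.39 ± 0.12, adjusted p = 0.103 by limma). In these 3 genes the libraries of the treatments did not overlap, which held for 26.7% of all genes tested. Adra2a, beside the densest desert, was near 0 at 0.0375, 0.0327 and 0.105 RPKM in EPZ6438 and 0.0140, 0.0355 and 0.0207 in DMSO. Nox3 and Lrrtm4, and Oprm1, Grm7, Sall3 and Galr1 as the nearest named genes, were listed at 0 in all 6 libraries. Edem1, Stim2 and Tle3 were above 4 RPKM in every library.

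Members of a pair of gene lists are also given. The lists were picked because such genes often neighbour deserts, so how many of them flanked a desert with a DMSO peak is a description from which nothing is read. Of 89 neuronal adhesion and guidance genes found, 47 flanked one. In the whole list 3 of 19 tested genes passed (15.8%, 1 higher and 2 lower), against the background of 7.04%. Of 8 tested among the 47, Robo2 was higher and 0 were lower, and Robo1 was at 0.339, 0.241 and 0.225 RPKM in EPZ6438 and 0.176, 0.178 and 0.266 in DMSO. Cntnap2, Cntn6, Cadm2, Cdh6 and Csmd1 were at or near 0 in every library. Of 70 developmental regulators, 15 flanked such a desert, and of 8 tested 0 were higher and 1 lower. In the whole list 5 of 40 tested genes passed (12.5%, 1 higher and 4 lower). With 8 genes tested in each flanking group, 1 call cannot be told from the background. The 1 was Foxp1, a forkhead transcription factor named here after its values were seen, at 4.21, 3.77 and 4.07 RPKM in EPZ6438 and 5.45, 6.06 and 5.36 in DMSO (log2 fold change -0.47 ± 0.11 SE, limma adjusted p = 0.0459). It passed in 5 of the 13 other fits, with adjusted p from 0.0140 to 0.206. Irx1, a homeobox gene beside 26 DMSO peaks with none retained, was at 2.02, 2.83 and 2.02 RPKM in EPZ6438 and 2.04, 3.62 and 4.19 in DMSO, with overlapping groups. Lmo4, a LIM-domain transcriptional cofactor, was at 14.6, 13.0 and 13.4 RPKM in EPZ6438 and 13.0, 12.8 and 10.7 in DMSO. Its groups touched without overlap, and it did not pass the test (limma adjusted p = 0.427). Irx4 and Fgf10 were at 0, as was Tcf21, which is not in the list. Of 13 Polycomb repressive complex 2 and H3K27 demethylase genes, Jarid2 alone flanked a desert with members, 9 peaks with none retained. It was at 2.62, 2.40 and 2.40 RPKM in EPZ6438 and 1.84, 1.65 and 1.79 in DMSO (log2 fold change 0.47 ± 0.12 SE, limma adjusted p = 0.0726). It passed in 2 of the 13 other fits, with median-of-ratios scaling (limma adjusted p = 0.0489) and with voom (limma adjusted p = 0.0235), and the range over the 13 was 0.0235 to 0.265.

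What counts as a desert depends on the annotation. Of the 11568 members, 1309 (11.3%) lay inside a RefSeq gene of the same build and 244 (2.11%) inside a protein-coding one, because RefSeq transcripts reach further than the table's intervals or add genes. The protein-coding genes with most members were Rbfox1, a neuronal splicing factor (33 peaks), Robo1 (21) and Ppargc1a, a co-activator of mitochondrial genes (17). Of the flanking genes named above, Robo2 held 9 members inside its RefSeq gene. RefSeq Crybg1, which starts at the same base as Aim1, held 1. Members inside a RefSeq gene were retained in 5.35% of cases and those outside in 4.36%. With RefSeq genes added to the table, 4200 peaks remained deserts, and 2.62% of them were retained.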

How the data were processed

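ChIP peaks were deposited as 1 merged list per mark and treatment, with chromosome, start and end and no score; that replicates were merged and set against the input of the same treatment is read from the names of the deposited files. The gene table gives RPKM per gene and library on mm10, made by the authors. The submitters' processing notes name MACS2, HOMER, DiffBind and Picard beside STAR 2.6.1c, Subread, FastQC and bcl2fastq, without roles. For peak thresholds, and for whether counting used strand, the tools' settings were not given in the sources used here.

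From these, peaks were classed by distance to 43309 gene intervals (37 mitochondrial rows were left out), with 1 bp of overlap counted as shared, in Python 3.11.15. With no replicate lists, shares have 95% Wilson intervals and densities exact Poisson intervals, for counting error only. The density length leaves out chromosome ends. RPKM times gene length gave whole reads in 100% of values (tolerance 0.01), 18807156 to 25365513 per library, used for a filter of 10 reads in at least 3 libraries. Genes were tested with limma 3.58.1 (trend, two-sided, R 4.3.3) on log2(RPKM + 0.1), Benjamini-Hochberg adjusted at 0.05; fold changes on that scale understate low genes. Intervals and fits were tested on simulated data. Alternatives were other distances, gene sets, widths, overlaps, pseudocounts, filters, scaling, voom, a replicate block and leaving out each library. Promoter windows come from RefSeq (GRCm38.p6, the build of mm10); 18 of 33 symbols sought beside the densest deserts matched.

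Named genes are those bounding the 10 densest and 5 most populated deserts, up to 10 called in each direction, the 3 widest and 3 widest retained peaks, and up to 10 per list; others are marked where named. The members, lists and rules were chosen with earlier results of these data known.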

Additional observations from a re-analysis of the deposited data

How the results depend on the processing

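Desert retention stayed below genic retention, and desert density below genic density, in every alternative tried. At limits of 50, 200 and 500 kb, the desert share of DMSO peaks was 16.4%, 2.89% and 0.264%, desert retention 6.36%, 2.08% and 0.794%, its difference from genic retention -5.57, -9.85 and -11.1 percentage points (main -7.46), and the density ratio to genes 0.845, 0.599 and 0.408 (main 0.720). The width ratio (main 0.919) turned to 1.05 at 500 kb, with 378 peaks; the cause was not tested. With named genes only, the share was 18.7%, retention 5.34%, difference -6.53 and density ratio 0.706. With peaks of at least 400 bp, share, retention and density ratio were 7.33%, 3.62% and 0.672. Requiring 50% of the DMSO peak to be covered gave 2.49% and a difference of -3.70; an EPZ6438 peak within 1 kb gave 5.58% and -9.04; width reweighting gave -6.98. Chosen after seeing the data, RefSeq genes added to the table gave a share of 2.93%, retention 2.62%, difference -9.12 and density ratio 0.467, and leaving out the Uaca desert gave retention 4.37%.

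RNA calls over all genes were 1001, 628 with no filter on low values (more genes tested), and 309 to 1003 with 1 library left out; those of flanking genes were 72, 52 with no filter, and 31 to 74. Whether the replicate numbers pair the libraries cannot be settled with 3 per treatment. Same-numbered deviations correlated at 0.410, 0.0781 and 0.0561, and libraries 1 and 3 but not 2 matched their own number best. With a replicate block the calls were 1051 over all genes and 74 flanking (35 higher, 39 lower). Voom gave 1168 and 77. No named gene that passed the test changed sign, and 9 that did not pass did. The log2 fold change of Arid1b was 0.012 and that of Tbc1d22a 0.031 with median-of-ratios scaling. With 1 library left out, the log2 fold change ran from -0.13 to 0.054 for Arid1b, -0.11 to 0.086 for Tbc1d22a, -0.23 to 0.021 for Gcfc2, -0.082 to 0.0092 for Stim2, -0.084 to 0.014 for Irx2, -0.28 to 0.075 for Mtf2, -0.038 to 0.14 for Ezh2, -0.19 to 0.088 for Suz12 and -0.14 to 0.12 for Phf1; the cause was not tested. Jarid2 passed with median-of-ratios scaling (limma adjusted p = 0.0489) and voom (limma adjusted p = 0.0235). Phf19, higher in EPZ6438 (limma adjusted p = 0.0171), missed the threshold in 4 of 13 alternatives, with adjusted p from 0.0622 to 0.1003. The depth of the ChIP libraries is unknown, so absence from a list is no measure of signal.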

Other observations

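Among 13 Polycomb repressive complex 2 and H3K27 demethylase genes, Phf19, a Polycomb-like accessory subunit, was the 1 that passed the limma test. That is 7.69% of the 13, against 7.04% of all genes tested. It was at 0.745, 0.855 and 0.773 RPKM in EPZ6438 and 0.285, 0.411 and 0.313 RPKM in DMSO (log2 fold change 1.04 ± 0.18 SE, limma adjusted p = 0.0171), and it flanks no desert with a DMSO peak. Kdm6b, a demethylase, was at 4.52, 5.83 and 5.18 RPKM in EPZ6438 and 3.00, 4.44 and 5.10 in DMSO, with overlapping groups. Genic promoter windows carried H3K4me3 peaks in 22.1% of cases in EPZ6438 and 11.7% in DMSO, while desert windows did in 0 of 790 and 2 of 790. Desert windows leave out, by the distance rule, the starts of the gene intervals in the table, so this contrast is a description.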
